A study of Mus musculus with 15 samples.

Results

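The 35 genes described here serve the burning of fatty acids and the making of ketone bodies in the liver. They were chosen by name: PPARalpha itself, the carnitine shuttle, mitochondrial and peroxisomal oxidation enzymes, acyl-CoA thioesterases, a ketone body enzyme and further targets of PPARalpha. All 35 had a row among the 15302 genes of the count table, and all 35 were among the 12274 genes that passed the filter on low counts. The set holds a single enzyme of ketone body metabolism, Bdh1.

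Fatty acids reach the liver from adipose tissue and food, are coupled to coenzyme A, and are carried into mitochondria on carnitine. There they are shortened in repeated rounds of beta-oxidation, and the acetyl-CoA that results can be turned into ketone bodies for other organs. PPARalpha is a nuclear receptor that is switched on by fatty acids, pairs with the retinoid X receptor, and raises many of these genes when an animal fasts.

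Liver RNA from 15 wild-type (WT) mice was sequenced, with 5 libraries in each of the Vehicle, GDF15 and PairFed groups. All animals had been kept from 8 weeks of age at about 29°C on a diet used to model metabolic dysfunction-associated steatohepatitis (MASH), in which fat and inflammation build up in the liver. They were caged alone, so the Vehicle controls share the diet, the warm housing and the single cage with both other groups. The GDF15 group was injected under the skin with recombinant GDF15, a hormone that curbs appetite, at 1 nmol/kg each morning, 1 to 2 h after the lights came on. The PairFed group was given the weight of food that GDF15 animals had eaten on the preceding day. Strain, sex, length of treatment and the time of tissue collection are missing from the labels used here. Libraries are numbered 1 to 5 within a group as names only.

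Library totals lay between 8551557 and 12994187 counts, and each of the 35 genes had at least 3004 counts over the 15 libraries. Of the 5 libraries above the widest gap in total count (10914914 to 12137462), 4 were PairFed (numbers 2 to 5) and the other was Vehicle 4, so depth and the PairFed group are largely tied. The summed level of 13 hepatocyte markers was at least 96600 CPM in every library. Of 11 listed markers of adipose tissue, muscle and pancreas 2 had a row, Cfd (adipose tissue) and Cela1 (pancreas). They summed to at most 25.9 CPM, and no listed muscle marker had a row. CPM is the count brought to a common library total after TMM scaling, which corrects for differences in library composition. In bulk liver RNA, fewer cells of a type and less RNA per cell cannot be told apart.

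The DNA before 4 of the RefSeq gene starts is shown first, because PPARalpha binds pairs of the letters AGGTCA that stand 1 base apart. RefSeq windows of assembly GRCm38.p6, from 250 bases before to 50 bases after each start, were found for 31 of the 35 genes and searched on both strands. The GENCODE annotation, used for the gene positions below, can place a start elsewhere. There the Cpt1a gene starts at 3322334, so its whole window lies inside the gene. The Crot gene, on the minus strand, starts at 8997324 and the Fabp1 gene at 71199827, both inside their windows. The Acot4 gene starts at 84038379, right after the bases printed here. The 250 bases before the start of Fabp1 and Cpt1a, which had high levels or large differences below, of Acot4, a thioesterase gene, and of Crot, the gene that passed the test, read 5′ to 3′ along the gene as follows, with matches in capitals (the loose pair in Fabp1 and a single AGGTCA or its complement TGACCT in Cpt1a and Acot4).
Fabp1, chr6:71199629-71199878, plus strand: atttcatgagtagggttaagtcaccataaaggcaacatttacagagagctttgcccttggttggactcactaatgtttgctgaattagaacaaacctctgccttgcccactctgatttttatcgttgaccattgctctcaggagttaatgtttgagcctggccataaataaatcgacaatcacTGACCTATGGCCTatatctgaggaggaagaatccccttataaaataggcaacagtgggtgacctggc
Cpt1a, chr19:3323051-3323300, plus strand: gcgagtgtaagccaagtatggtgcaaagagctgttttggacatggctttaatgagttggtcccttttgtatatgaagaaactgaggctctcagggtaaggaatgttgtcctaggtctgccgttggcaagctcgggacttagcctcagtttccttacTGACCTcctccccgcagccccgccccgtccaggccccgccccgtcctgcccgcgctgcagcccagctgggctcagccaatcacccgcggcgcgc
Acot4, chr12:84038129-84038378, plus strand: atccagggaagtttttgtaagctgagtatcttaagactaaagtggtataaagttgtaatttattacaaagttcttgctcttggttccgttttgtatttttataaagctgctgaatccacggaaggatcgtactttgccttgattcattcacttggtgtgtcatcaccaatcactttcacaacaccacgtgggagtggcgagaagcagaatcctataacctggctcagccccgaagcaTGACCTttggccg
Crot, chr5:8997147-8997396, minus strand: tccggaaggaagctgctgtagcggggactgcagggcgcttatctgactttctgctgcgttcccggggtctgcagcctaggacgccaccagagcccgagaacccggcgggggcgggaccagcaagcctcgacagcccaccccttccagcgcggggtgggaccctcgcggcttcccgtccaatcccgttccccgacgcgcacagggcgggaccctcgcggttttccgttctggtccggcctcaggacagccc

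A perfect pair, AGGTCA followed by 1 base of any kind and AGGTCA again, was in 0 of the 31 windows and in 0.0481% of all 27025 genes with a window. A looser pair of AGGNCA, where N is any base, was in 1 of the 31 (3.23%), against 0.345% of the genes tested and 0.451% of all genes with a window. That gene was Fabp1, whose match lies on the opposite strand at 71199812 to 71199824 of chromosome 6, 67 bases before the RefSeq start. A single AGGTCA was in 6 of the 31 (19.4%), against 15% of the genes tested and 18.1% of all genes with a window. The 6 were Cpt1a, Acadvl, Acadm, Acot3, Acot4 and Fabp1. The glucocorticoid response element, read as ACA, 3 bases of any kind and TGT with an outer G and C, was in 0 of the 31 windows and 0.335% of the genes tested. A match is a description and not a binding site, and no match says only that the letters are not in this window. The Crot window holds no AGGTCA on either strand.

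Most of the 35 genes stood close to their Vehicle level in both other groups. With GDF15, 0 rose and 1 fell, Crot, at an adjusted p below 0.05 in edgeR's quasi-likelihood test, against 2.90% of all genes tested that changed in either direction. With pair feeding, 0 of the 35 passed, against 0.285% of all genes tested. Between GDF15 and PairFed, 0 of the 35 passed, against 0.782% of all genes tested. DESeq2 called 1 (Crot), 4 (Acot3, Cpt1a, Pex11a and Slc22a5) and 1 (Vnn1) of the 35 in the same order, and limma-voom called 1 (Crot), 0 and 0. Over all 12274 genes tested, DESeq2 called 642, 339 and 259 in that order, and limma-voom called 303, 40 and 75.

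At an unadjusted p under 0.05 the same edgeR test gave 5 higher and 1 lower genes of the 35 with GDF15, where 9.12% of all genes were higher and 7.54% lower. With pair feeding it gave 13 higher and 0 lower, where 8.66% of all genes were higher and 8.25% lower. Between GDF15 and PairFed it gave 0 higher and 6 lower, where 7.01% of all genes were higher and 6.31% lower. The fold change was positive for 28 of the 35 with GDF15 and 31 of the 35 with pair feeding, against 48.9% and 49.9% of all genes tested. Upper-quartile scaling, under which the median gene shifted to -0.04 and -0.03, gave 24 and 30. The median log2 fold change of the 35 was 0.06 with GDF15 and 0.15 with pair feeding, beside -0.01 and 0.00 over all genes tested. It was -0.07 between GDF15 and PairFed, beside 0.00 over all genes. The comparisons with Vehicle share the same 5 controls, so their values are given side by side and are not independent.

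No member separated the GDF15 libraries wholly from Vehicle (0 of 35), while 3.99% of all genes tested did. With pair feeding 2 of 35 did so, Bdh1 and Acadl, both higher, against 3.92% of all genes. Between GDF15 and PairFed 1 of 35 did so, Vnn1, lower with GDF15, against 2.86% of all genes. These counts are near what the background shares would give among 35 genes.

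Markers of other cell types differed in the same libraries. Of 10 recruited monocyte markers 0 had a positive fold change in either comparison with Vehicle, and their summed level was 191 to 314 CPM in Vehicle, 143 to 267 in GDF15 and 165 to 237 in PairFed. Ly6c2 fell with GDF15, and with pair feeding 0 of the 10 passed in edgeR, 4 were lower at an unadjusted p under 0.05 and DESeq2 called Itgax. Of 4 tested T and NK cell markers 0 had a positive fold change in either comparison. Cd3g and Cd8a fell with GDF15, and with pair feeding 0 passed in edgeR or DESeq2 and 3 were lower at an unadjusted p under 0.05. The 8 T and NK cell markers in the table summed to 4.39 to 11.5 CPM in Vehicle, 2.94 to 4.93 in GDF15 and 3.22 to 6.67 in PairFed.

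Of 5 tested cholangiocyte markers Sox9 fell with pair feeding, and with GDF15 0 passed in edgeR, 2 were lower at an unadjusted p under 0.05 and DESeq2 called Sox9. The 7 in the table summed to 194 to 470 CPM in Vehicle, 126 to 313 in GDF15 and 152 to 267 in PairFed. Of 13 hepatocyte markers 3 rose with GDF15, Cps1, Arg1 and Apoc3, and with pair feeding 0 passed in edgeR or DESeq2 and 1 was higher at an unadjusted p under 0.05. In 7 other lists (Kupffer cells, lipid-associated macrophages, neutrophils, B and plasma cells, stellate cells and fibroblasts, endothelium, red cells) 0 of 48 tested markers passed in edgeR against Vehicle. At an unadjusted p under 0.05, 2 of the 48 were higher and 7 lower with GDF15, and 0 higher and 4 lower with pair feeding, and DESeq2 called 1 and 0. The lists did not move alike. Their median log2 fold changes ran from -1.29 (B and plasma cells) to 0.32 (red cells) with GDF15. With pair feeding they ran from -0.54 (B and plasma cells) to 0.43 (endothelium). For B and plasma cells 1 control stood apart. The mean log2 level of the 4 tested markers, relative to the Vehicle mean, was 2.37 in Vehicle 4 and -1.23 to -0.13 in the other controls. It was -0.89 to -0.32 in GDF15 and -1.08 to 0.70 in PairFed, within or above the range of those other controls. Of 9 endothelial markers 4 had a positive fold change with GDF15 and 9 with pair feeding. Of 11 stellate cell and fibroblast markers 0 and 1 did. Every gene of the table had at least 5 counts over the 15 libraries, so no marker with a row could be at 0 throughout. Rows existed for 5 of 6 neutrophil markers, 6 of 7 B and plasma cell markers and 3 of 5 red cell markers. The remaining lists of the 7 were complete. Cfd and Cela1 both had negative fold changes in either comparison with Vehicle. Neither passed in edgeR, and DESeq2 called Cfd in both. Their sum was 18.9 to 25.9 CPM in Vehicle, 11.3 to 14.2 in GDF15 and 9.59 to 19.9 in PairFed. The part of these cell types in the values of the 35 genes was not tested.

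**Figure D1:**
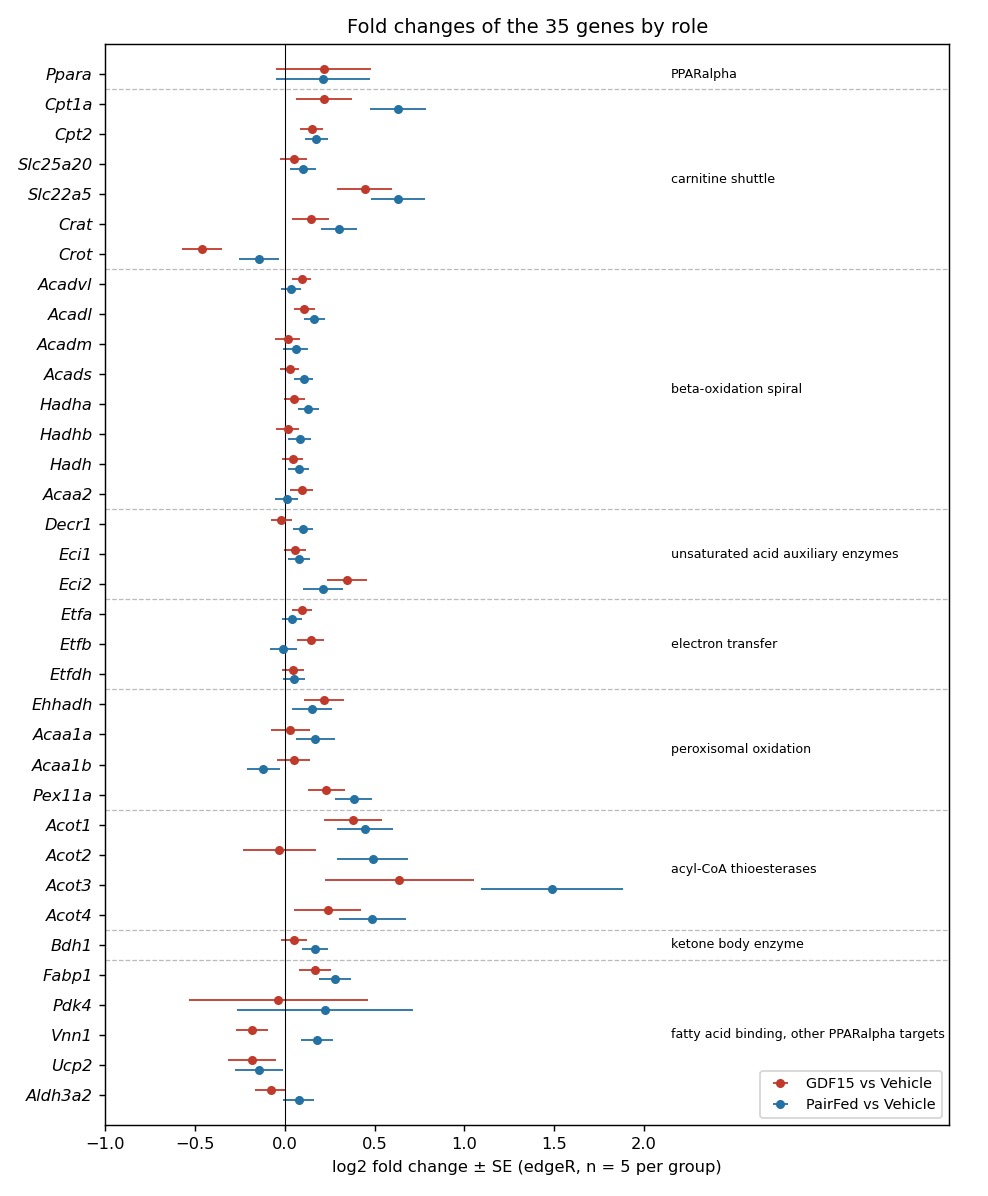
Log2 fold change with its SE from edgeR (horizontal axis) for each of the 35 genes grouped by role (vertical axis), for GDF15 vs Vehicle in red and PairFed vs Vehicle in blue, n = 5 libraries per group. Most points lie between 0 and 0.5, Crot lies at -0.46 with GDF15, and Acot3 lies at 1.49 with pair feeding. In both comparisons Acot3 has the widest error bar of the thioesterases.

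Averaged over the 35 genes, the log2 level relative to the Vehicle mean was 0.10 ± 0.07 in GDF15 and 0.20 ± 0.13 in PairFed, with a spread of 0.09 in Vehicle (mean ± SD, n = 5 each). The PairFed libraries were not alike: numbers 3, 4 and 5 stood at 0.32, 0.29 and 0.25, and numbers 1 and 2 at 0.14 and 0.01. Vehicle 3 had the lowest value of all 15 libraries for 14 of the 35 genes and Vehicle 1 for 9. GDF15 1 had the highest value for 10 genes, PairFed 3 for 9 and PairFed 5 for 7. The summed level of the 35 genes was 12500 to 14800 CPM in Vehicle, 13300 to 15300 in GDF15 and 13900 to 15400 in PairFed, so the groups overlapped.

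**Figure D2:**
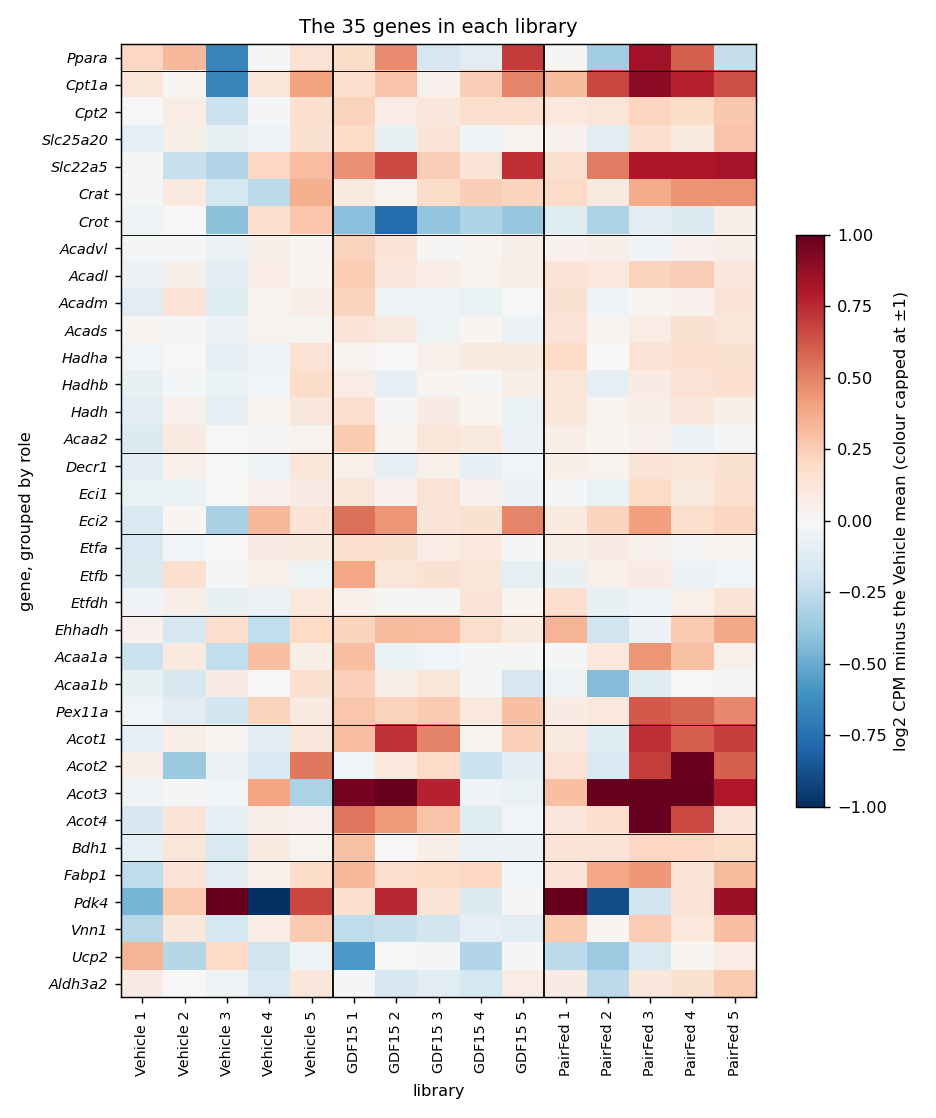
Log2 CPM minus the Vehicle mean (colour, capped at 1 in either direction) for the 35 genes (rows, by role) in the 15 libraries (columns). The spiral and electron transfer rows stay pale in every library, the Crot row is blue in all 5 GDF15 libraries, and the Acot4 row is darkest in PairFed 3.

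Ppara, on chromosome 15, encodes PPARalpha, the receptor that governs many of the other genes here. Its level was 84.9, 92.1, 46.5, 73.2 and 81.2 CPM in Vehicle 1 to 5. It was 83.6, 102, 65.4, 68.4 and 120 CPM in GDF15 and 74.2, 57.7, 132, 111 and 62.5 CPM in PairFed. Libraries high and low for Ppara occurred in every group and the ranges overlapped throughout. Its log2 fold change was 0.22 ± 0.26 (SE) with GDF15 (adjusted p = 0.742) and 0.21 ± 0.26 with pair feeding (adjusted p = 0.723). Its coefficient of variation within groups was 29.5%, more than that of 86.6% of the genes tested, where the median gene had 12.3%.

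The carnitine shuttle held the member that passed the test. Crot, carnitine O-octanoyltransferase, works in the peroxisome, where it couples shortened fatty acids to carnitine so that they can leave for the mitochondrion. The gene lies on the minus strand at chr5:8966033-8997324 of GRCm38. Crot stood at 660, 680, 510, 768 and 822 CPM in Vehicle, 507, 398, 517, 549 and 523 CPM in GDF15, and 623, 548, 626, 613 and 707 CPM in PairFed. All 5 GDF15 libraries were below 4 of the 5 Vehicle libraries, and the overlap came from Vehicle 3, the lowest control. Crot fell with GDF15 from 688 ± 119 to 499 ± 58.4 CPM (mean ± SD, n = 5 each), 1.38-fold lower (log2 -0.46 ± 0.11 SE, adjusted p = 0.0322 by edgeR). In PairFed it was 624 ± 56.3 CPM, at -0.14 ± 0.11 from Vehicle (adjusted p = 0.543). The direct difference of GDF15 from PairFed was -0.32 ± 0.11 (adjusted p = 0.206), so Crot was not shown to differ between these groups.

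The fold change of Crot stayed negative in every setting tried, from -0.56 to -0.39, but its adjusted p ran from 0.00449 to 0.409 and passed in 15 of 25 settings. It did not pass without Vehicle 1, 2, 4 or 5 or GDF15 1 or 2 (adjusted p = 0.0653, 0.0516, 0.0620, 0.0727, 0.0685 and 0.0922), in the fit of the 2 groups alone (0.0755), with a term for the deeper libraries (0.0507) or among the shallower libraries (0.123). Other lists differed in the same libraries. With GDF15, 5 of 10 periportal hepatocyte markers and 11 of 16 glucocorticoid-induced genes rose, beside 2.90% of all genes that changed. With pair feeding 0 of either list passed in edgeR, and DESeq2 called 0 and 5. At an unadjusted p under 0.05, 7 of the 10 were higher in each comparison with Vehicle, where 9.12% and 8.66% of all genes were higher. Of the 16, 13 were higher and 1 lower with GDF15, and 6 higher and 2 lower with pair feeding. Of 10 pericentral hepatocyte markers 0 passed in edgeR in either comparison, and DESeq2 called 3 and 1. Positive fold changes numbered 9 and 10. Of the 17 tested immediate-early genes 0 passed with GDF15 in edgeR and DESeq2 called 5. At an unadjusted p under 0.05, 13 were higher, and the median log2 fold change was 0.96. Summed immediate-early levels were 455 to 911 CPM in Vehicle, 644 to 2250 in GDF15 and 728 to 1310 in PairFed. After adding the immediate-early score to the model, Crot stood at -0.50 (adjusted p = 0.409). The part of the periportal, pericentral and glucocorticoid genes in the Crot result was not tested.

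Cpt1a, carnitine palmitoyltransferase 1a, loads long fatty acids onto carnitine at the outer mitochondrial membrane and sets the pace of their entry. It lies at chr19:3322334-3385733, plus strand. Its level was 500, 464, 290, 500 and 606 CPM in Vehicle, 519, 561, 473, 544 and 645 CPM in GDF15, and 572, 730, 854, 781 and 717 CPM in PairFed. PairFed 2 to 5 lay above every Vehicle library, and PairFed 1 lay below Vehicle 5 and above the other controls. Vehicle 3 was the lowest control. The means were 472 ± 115, 548 ± 63.1 and 731 ± 104 CPM (mean ± SD, n = 5 each). The log2 fold change with pair feeding was 0.63 ± 0.16 (SE), or 1.55-fold, and did not pass (adjusted p = 0.0781 by edgeR, 0.00791 by DESeq2). With GDF15 it was 0.22 ± 0.16 (adjusted p = 0.520), and GDF15 differed from PairFed by -0.41 ± 0.16 (adjusted p = 0.250).

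Slc22a5, on chromosome 11, encodes OCTN2, the transporter that brings carnitine into the cell. Its level was 21.5, 18.3, 17.3, 24.6 and 26.5 CPM in Vehicle, 29.4, 33.8, 25.3, 23.5 and 35.6 CPM in GDF15, and 23.9, 30.7, 37.4, 37.5 and 37.9 CPM in PairFed. The highest control was exceeded by 3 GDF15 and 4 PairFed libraries. With pair feeding its log2 fold change was 0.63 ± 0.15 (adjusted p = 0.0753 by edgeR, 0.0101 by DESeq2). With GDF15 it was 0.44 ± 0.16 (adjusted p = 0.142). Its value is uncertain as to source, since 36.5% of the 31-base words of its transcript also occur in Slc22a21.

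Depth moved with the values of Cpt1a and Slc22a5, since PairFed 1 is the single PairFed library of the shallower set and had the lowest PairFed value of each. Among the deeper libraries, PairFed 2 to 5 exceeded Vehicle 4 for Cpt1a (500 CPM) and for Slc22a5 (24.6 CPM). With a term for the deeper libraries the fold changes with pair feeding were 0.46 for Cpt1a (adjusted p = 0.411) and 0.38 for Slc22a5 (adjusted p = 0.426). Both passed without Vehicle 5 and without PairFed 1. Whether depth has a part in these differences cannot be told apart from the group.

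The remaining shuttle genes differed less. Cpt2, which takes carnitine off again inside the mitochondrion, was at 0.15 ± 0.07 with GDF15 and 0.18 ± 0.07 with pair feeding (log2, SE). Crat, which makes acetylcarnitine, was at 0.14 ± 0.10 and 0.30 ± 0.10. Slc25a20, which swaps acylcarnitine for carnitine across the inner membrane, was at 0.05 ± 0.08 and 0.10 ± 0.08. None of these 3 passed, with adjusted p-values from 0.154 to 0.806.

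**Figure D3:**
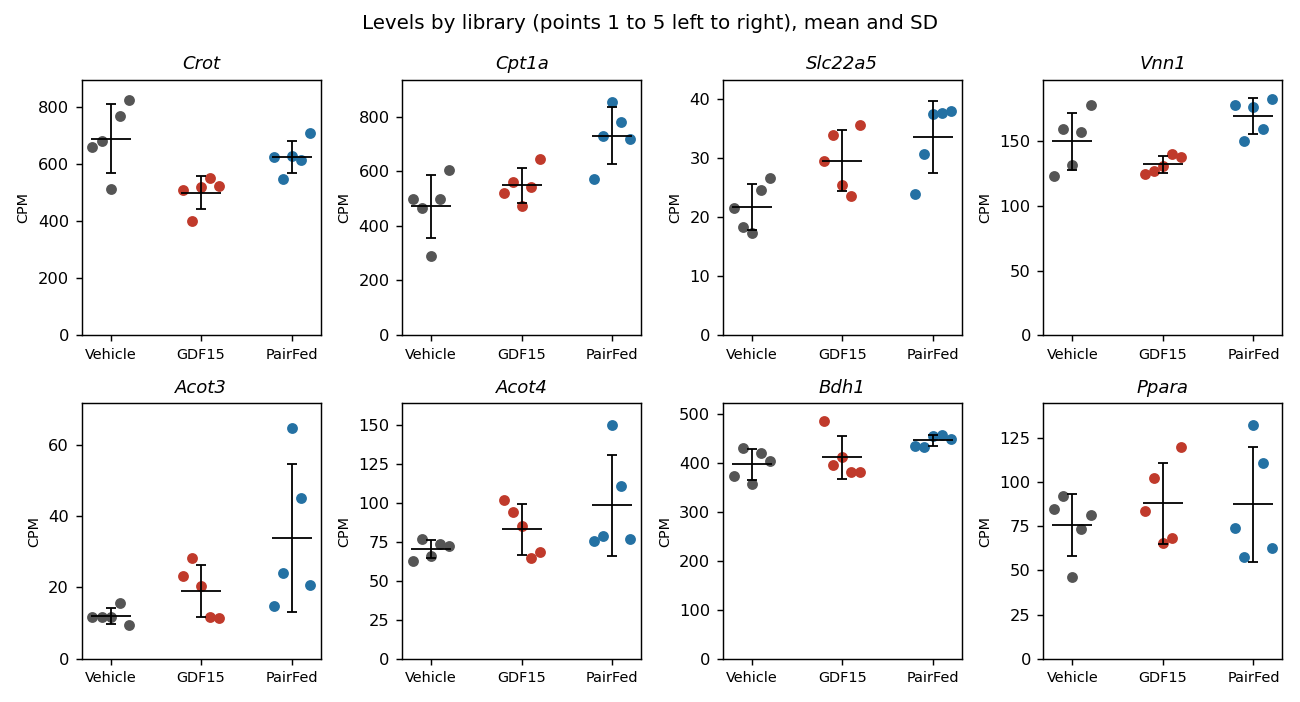
CPM (vertical axis, from 0) in each library of Vehicle, GDF15 and PairFed for 8 of the genes, with points for libraries 1 to 5 from left to right and bars for the mean and SD. The GDF15 points of Crot lie between 398 and 549 CPM below 4 of 5 controls, and the highest PairFed points of Acot3 and Acot4 are both library 3.

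The 8 genes of the mitochondrial beta-oxidation spiral stood close to Vehicle in both groups. Their log2 fold changes ran from 0.02 to 0.11 with GDF15 and from 0.01 to 0.16 with pair feeding, 8 of 8 positive in each. In edgeR 0 of 8 passed, as in DESeq2 and limma-voom, and at an unadjusted p under 0.05 there were 0 with GDF15 and 2 higher with pair feeding, against 9.12% and 8.66% of all genes higher. Their coefficients of variation within groups were 4.24% to 7.36%, against a median of 12.3% over all genes tested, so the spread between libraries was small as well. Differences between GDF15 and PairFed ran from -0.08 to 0.09.

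The spiral opens with the acyl-CoA dehydrogenases, which differ by the chain length they take. Acadm, the medium-chain enzyme, stood at 374, 445, 373, 415 and 426 CPM in Vehicle, 472, 396, 392, 388 and 406 CPM in GDF15, and 451, 395, 412, 419 and 442 CPM in PairFed. GDF15 1 and PairFed 1 were above the highest control, and the other libraries lay within the control range. Its log2 fold changes were 0.02 ± 0.07 (SE) with GDF15 and 0.06 ± 0.07 with pair feeding (adjusted p = 0.943 and 0.700). Acadl, the long-chain enzyme, stood at 223, 243, 216, 245 and 236 CPM in Vehicle and 255, 249, 271, 275 and 252 CPM in PairFed. Each PairFed library was above each control for Acadl, by little: the log2 fold change was 0.16 ± 0.06 (adjusted p = 0.169). Acadvl, for very long chains, was at 0.09 ± 0.05 with GDF15 and 0.03 ± 0.05 with pair feeding, and Acads, for short chains, at 0.03 ± 0.05 and 0.11 ± 0.05.

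Hadha and Hadhb encode the subunits of the trifunctional protein, which carries out the later steps on long chains. The genes lie back to back on chromosome 5, Hadha at 30118304 to 30155162 on the minus strand and Hadhb at 30155248 to 30184593 on the plus strand, with 85 bases between them. Hadha stood at 430, 437, 410, 427 and 484 CPM in Vehicle, 448, 437, 452, 467 and 465 CPM in GDF15, and 501, 437, 482, 488 and 485 CPM in PairFed. PairFed 1, 4 and 5 were just above the highest control, and all GDF15 libraries lay within the control range. The log2 fold changes of Hadha were 0.05 ± 0.06 with GDF15 and 0.13 ± 0.06 with pair feeding (adjusted p = 0.699 and 0.262). Those of Hadhb were 0.02 ± 0.06 and 0.08 ± 0.06, and its count is uncertain since 64.7% of its 31-base words recur in the annotated copy Gm13910. Hadh, the dehydrogenase for shorter chains, and Acaa2, the thiolase that cuts off acetyl-CoA, had fold changes of at most 0.09 in size against Vehicle.

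The enzymes that prepare unsaturated fatty acids and those that pass on electrons were similarly flat, with an exception in Eci2. Eci2, an isomerase that moves double bonds, stood at 123, 138, 109, 171 and 150 CPM in Vehicle, 200, 185, 149, 152 and 192 CPM in GDF15, and 146, 160, 181, 154 and 159 CPM in PairFed. GDF15 1, 2 and 5 were above all controls and GDF15 3 and 4 were not. Its log2 difference with GDF15 was 0.34 ± 0.11 (SE, adjusted p = 0.107 by edgeR). Eci2 passed without Vehicle 4 and with the term for the deeper libraries, and it shares 12.2% of its 31-base words with Eci3. Eci1 and Decr1, the latter a reductase for polyunsaturated chains, were at 0.06 and -0.02 with GDF15 and at 0.08 and 0.10 with pair feeding.

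Etfa and Etfb form the electron transfer flavoprotein, and Etfdh hands its electrons to the respiratory chain. Etfb stood at 186, 230, 204, 213 and 199 CPM in Vehicle, 270, 224, 229, 224 and 193 CPM in GDF15, and 196, 213, 218, 198 and 202 CPM in PairFed. GDF15 1 was the single high library, and the rest of the groups overlapped. The log2 fold change was 0.14 ± 0.08 with GDF15 (adjusted p = 0.372) and -0.01 ± 0.08 with pair feeding (adjusted p = 0.970), and 68.0% of its 31-base words recur in Gm45233. Etfa was at 0.10 ± 0.06 and 0.04 ± 0.06, and Etfdh at 0.05 ± 0.06 in both comparisons.

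Peroxisomes shorten the longest chains before mitochondria finish them. Ehhadh, the peroxisomal bifunctional enzyme, stood at 375, 326, 409, 307 and 417 CPM in Vehicle, 424, 454, 452, 411 and 391 CPM in GDF15, and 461, 317, 349, 437 and 473 CPM in PairFed. GDF15 1, 2 and 3 and PairFed 1, 4 and 5 were above the highest control, and the other libraries were within its range. The log2 fold changes were 0.22 ± 0.11 (SE) with GDF15 and 0.15 ± 0.11 with pair feeding (adjusted p = 0.337 and 0.508). Pex11a, which drives peroxisome division, was at 127 ± 14.6, 149 ± 7.56 and 166 ± 28.7 CPM (mean ± SD, n = 5 each in Vehicle, GDF15 and PairFed). Its log2 fold change with pair feeding was 0.38 ± 0.10 (adjusted p = 0.0923 by edgeR, 0.0322 by DESeq2), and it passed in edgeR without PairFed 1, the single PairFed library of the shallower set. Over the settings tried the fold change of Pex11a ran from 0.18 to 0.45, and its adjusted p in edgeR reached 0.551. PairFed 1 and 2, at 134 and 136 CPM, lay within the control range of 111 to 148 CPM, and PairFed 3, 4 and 5 lay above it.

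Acaa1a and Acaa1b encode peroxisomal thiolases and lie on chromosome 9, at 119339676 to 119350299 and 119148023 to 119157093. Acaa1b stood at 1960, 1840, 2180, 2050 and 2300 CPM in Vehicle, 2420, 2150, 2230, 2030 and 1830 CPM in GDF15, and 1990, 1520, 1890, 2060 and 2040 CPM in PairFed. PairFed 2 was lowest and GDF15 1 highest, with wide overlap. The log2 fold changes were 0.05 ± 0.09 with GDF15 and -0.12 ± 0.09 with pair feeding for Acaa1b, and 0.03 ± 0.11 and 0.17 ± 0.11 for Acaa1a. The pair shares 43.8% of the 31-base words of Acaa1a and 45.7% of those of Acaa1b, so the division of counts between them is uncertain. Per kilobase of transcript, the mean Vehicle level was 1220 CPM for Acaa1b and 122 CPM for Acaa1a.

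The 4 acyl-CoA thioesterases, which release free fatty acids from coenzyme A, held the largest fold change of the set and had wide spreads, with coefficients of variation of 18.5% to 43.2% within groups. They lie side by side on chromosome 12 within 72542 bases, from 83987861 to 84060402. With pair feeding all 4 had positive log2 fold changes, from 0.45 to 1.49; 0 of 4 passed in edgeR, 4 were higher at an unadjusted p under 0.05, against 8.66% of all genes, and DESeq2 called Acot3. With GDF15 the range was -0.03 to 0.64, and between GDF15 and PairFed it was -0.85 to -0.07. Their levels per kilobase were low, 3.50 to 11.3 CPM in Vehicle, and they share sequence: 29.2% of the 31-base words of Acot1 occur in Acot2, and 11.7% of those of Acot3 in Gm49366. Counts of single members are uncertain for that reason.

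Acot3, a peroxisomal form, stood at 11.6, 11.8, 11.6, 15.7 and 9.52 CPM in Vehicle, 23.3, 28.3, 20.4, 11.6 and 11.4 CPM in GDF15, and 14.7, 24.2, 64.8, 45.1 and 20.8 CPM in PairFed. GDF15 1, 2 and 3 and PairFed 2 to 5 exceeded the highest control, and PairFed 3 and 4 stood far above the rest. Acot3 averaged 12.0 ± 2.24 CPM over the 5 controls and 33.9 ± 20.7 CPM over the 5 PairFed libraries (± SD). With pair feeding it stood at a log2 difference of 1.49 ± 0.40 (SE), or 2.81-fold (adjusted p = 0.111 by edgeR, 0.0136 by DESeq2). It was 1.12 without PairFed 3 (adjusted p = 0.169) and 0.89 with the term for the deeper libraries (adjusted p = 0.534). With GDF15 it was 0.64 ± 0.41 (adjusted p = 0.486).

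Acot1, the cytosolic form, stood at 14.3, 16.1, 15.6, 14.1 and 16.6 CPM in Vehicle, 19.0, 25.3, 21.6, 15.7 and 18.1 CPM in GDF15, and 16.4, 14.1, 25.6, 23.3 and 24.9 CPM in PairFed. GDF15 1, 2, 3 and 5 and PairFed 3, 4 and 5 were above the narrow range of the controls. Acot2, the mitochondrial form, ranged from 13.0 to 24.3 CPM in Vehicle and from 14.5 to 19.3 CPM in GDF15, and stood at 27.2, 33.5 and 25.6 CPM in PairFed 3, 4 and 5. These were again the high libraries, PairFed 1 and 2 lay within the control range, and GDF15 lay within the control range. The log2 fold changes with pair feeding were 0.45 ± 0.16 for Acot1, 0.49 ± 0.20 for Acot2 and 0.49 ± 0.19 for Acot4 (adjusted p = 0.168, 0.223 and 0.204). Acot4 reached 150 CPM in PairFed 3 and 111 CPM in PairFed 4, beside 62.5 to 76.6 CPM in Vehicle. PairFed 1, 2 and 5, at 75.8, 78.4 and 76.6 CPM, were near the highest control. Its GDF15 libraries stood at 102, 94.1, 85.4, 64.4 and 68.6 CPM, and GDF15 1, 2 and 3 were above all controls. The log2 fold change of Acot4 with GDF15 was 0.24 ± 0.19 (adjusted p = 0.571 by edgeR).

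Bdh1 interconverts the ketone bodies acetoacetate and beta-hydroxybutyrate in mitochondria. It lies at chr16:31422280-31458901, plus strand. It stood at 374, 431, 357, 421 and 405 CPM in Vehicle, 486, 397, 413, 381 and 382 CPM in GDF15, and 436, 433, 456, 457 and 450 CPM in PairFed. All PairFed libraries were above all controls, the closest being 433 against 431 CPM, and GDF15 1 was the highest of all. Pair feeding gave a log2 difference of 0.17 ± 0.07 (SE) (adjusted p = 0.240) and 0.05 ± 0.07 with GDF15 (adjusted p = 0.784).

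Fabp1, the fatty acid binding protein of the liver, had the highest level per kilobase of the 35, with means of 5588, 6275 and 6781 CPM in Vehicle, GDF15 and PairFed. It stood at 2580, 3360, 2850, 3170 and 3500 CPM in Vehicle, 3860, 3430, 3510, 3550 and 3010 CPM in GDF15, and 3380, 4030, 4150, 3370 and 3830 CPM in PairFed. In GDF15 and in PairFed 3 libraries each were above the highest control. On the log2 scale the difference was 0.28 ± 0.09 (SE) with pair feeding (adjusted p = 0.145) and 0.17 ± 0.09 with GDF15 (adjusted p = 0.377).

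Vnn1, a pantetheinase that yields the vitamin part of coenzyme A, had the lowest adjusted p of the 35 between GDF15 and PairFed. It stood at 123, 160, 132, 157 and 178 CPM in Vehicle, 125, 127, 131, 140 and 138 CPM in GDF15, and 178, 150, 177, 160 and 183 CPM in PairFed. Every GDF15 library was below every PairFed library, and the controls spanned both. The difference of GDF15 from PairFed was -0.36 ± 0.09 (log2, SE) and did not pass (adjusted p = 0.0660 by edgeR, 0.0128 by DESeq2). From Vehicle, GDF15 was at -0.18 ± 0.09 and PairFed at 0.18 ± 0.09 (adjusted p = 0.308 for each). Vnn1 passed in edgeR with upper-quartile factors, with the filter of 10 CPM in 5 libraries, in the fit of these 2 groups and without Vehicle 1, and the adjusted p was 0.420 with the term for the deeper libraries.

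Pdk4, a kinase that shuts off pyruvate dehydrogenase and so spares glucose, varied most of the 35. It stood at 22.8, 37.9, 68.3, 10.4 and 50.3 CPM in Vehicle, 35.3, 53.3, 34.6, 28.7 and 31.7 CPM in GDF15, and 84.2, 16.9, 27.6, 34.6 and 57.5 CPM in PairFed. High and low libraries occurred among the controls and the PairFed animals alike. Its coefficient of variation within groups was 51.5%, and its log2 fold changes were -0.04 ± 0.50 and 0.22 ± 0.49 (SE, adjusted p = 0.981 and 0.855), so a change of this size was not detectable at this spread.

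Ucp2, a carrier of the inner mitochondrial membrane, stood at 94.6, 61.3, 85.6, 64.9 and 72.0 CPM in Vehicle, 50.2, 74.3, 74.0, 61.0 and 73.7 CPM in GDF15, and 62.3, 57.9, 67.0, 75.8 and 78.7 CPM in PairFed. Vehicle 1 and GDF15 1 were the extremes and the groups overlapped. Its log2 fold changes were -0.18 ± 0.13 with GDF15 and -0.15 ± 0.13 with pair feeding (SE, adjusted p = 0.534 and 0.608). Aldh3a2, which oxidises fatty aldehydes, was at -0.08 ± 0.09 and 0.08 ± 0.09.

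Genes of the pathway outside the 35 were taken from lists of 148 genes, of which 142 were tested. With GDF15, 10 of the 142 rose and 0 fell, beside the 2.90% of all genes that changed. With pair feeding 0 of the 142 passed in edgeR, beside 0.285% of all genes. At an unadjusted p under 0.05, 27 were higher and 5 lower, beside 8.66% and 8.25% of all genes. DESeq2 called 10 of the 142, where it called 339 of all 12274 genes, and limma-voom called 0. Between GDF15 and PairFed 3 of the 142 passed, beside 0.782% of all genes, all higher with GDF15: Plin5, Ppargc1a and Lpin1.

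Of the 10, 5 belonged to the partners and regulators of PPARalpha, a list of 32. Ppargc1a, the coactivator PGC-1alpha, stood at 12.7, 13.9, 10.7, 12.5 and 10.5 CPM in Vehicle, 33.5, 29.5, 17.8, 20.0 and 22.3 CPM in GDF15, and 15.7, 15.8, 11.7, 14.4 and 9.74 CPM in PairFed. All GDF15 libraries were above all others. It rose 2.03-fold over Vehicle (log2 1.02 ± 0.17, adjusted p = 0.00371) and was 1.82-fold above PairFed (log2 0.87 ± 0.17, adjusted p = 0.0253). Lpin1, which also acts beside PPARalpha in the nucleus and belongs to the glucocorticoid-induced list as well, had means of 191 ± 33.7 CPM in Vehicle, 715 ± 172 in GDF15 and 257 ± 110 in PairFed (± SD). Lpin2, Foxo1 and Klf15 rose with GDF15 by 0.82 ± 0.15, 0.89 ± 0.15 and 0.79 ± 0.15 (adjusted p = 0.00937, 0.00573 and 0.0125). Rxra, the partner of PPARalpha, was at 0.33 ± 0.12 with GDF15 and 0.37 ± 0.12 with pair feeding (adjusted p = 0.143 and 0.141).

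The other 5 were Acadsb, Abcd3, Plin5, Por and Pdp2. Plin5, a lipid droplet protein that links droplets to mitochondria, stood at 64.3, 44.8, 57.2, 51.3 and 62.2 CPM in Vehicle, 74.2, 93.7, 79.6, 92.1 and 89.1 CPM in GDF15, and 45.0, 37.0, 50.2, 57.6 and 61.5 CPM in PairFed. It rose with GDF15 against both groups, by 0.62 ± 0.13 from Vehicle and 0.77 ± 0.13 from PairFed (adjusted p = 0.0145 and 0.00977). Acadsb, the dehydrogenase of branched short chains, rose from 75.6 ± 6.75 to 92.6 ± 6.59 CPM (log2 0.29 ± 0.07, adjusted p = 0.0279), and Abcd3, a peroxisomal transporter, from 537 ± 56.5 to 666 ± 61.3 CPM (log2 0.31 ± 0.08, adjusted p = 0.0418). Por, the reductase of the cytochromes P450, rose by 1.18 ± 0.26 (adjusted p = 0.0295), and Pdp2, the phosphatase that counters the Pdk kinases, by 0.57 ± 0.13 (adjusted p = 0.0254). With pair feeding neither Por nor Pdp2 passed in edgeR, while DESeq2 called both. Between GDF15 and PairFed neither was called by edgeR or DESeq2.

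Among the 8 tested genes of ketone body metabolism outside the 35, 0 passed in edgeR, DESeq2 or limma-voom in any comparison. At an unadjusted p under 0.05 in edgeR there were 0 higher and 2 lower with GDF15, 1 higher and 2 lower with pair feeding, and 0 between GDF15 and PairFed. Fgf21, a fasting hormone under PPARalpha, was at -0.70 ± 0.31 with GDF15 and -0.69 ± 0.30 with pair feeding (adjusted p = 0.271 and 0.268). Cyp4a14, a fatty acid hydroxylase used as a readout of PPARalpha, stood at 349, 425, 292, 389 and 388 CPM in Vehicle and 771, 631, 575, 512 and 426 CPM in GDF15. Its GDF15 libraries did not overlap the controls, the nearest values being 426 and 425 CPM, and the difference of 0.66 ± 0.18 did not pass (adjusted p = 0.0717 by edgeR, 0.00736 by DESeq2). Between GDF15 and PairFed neither edgeR nor DESeq2 called Cyp4a14.

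**Figure D4:**
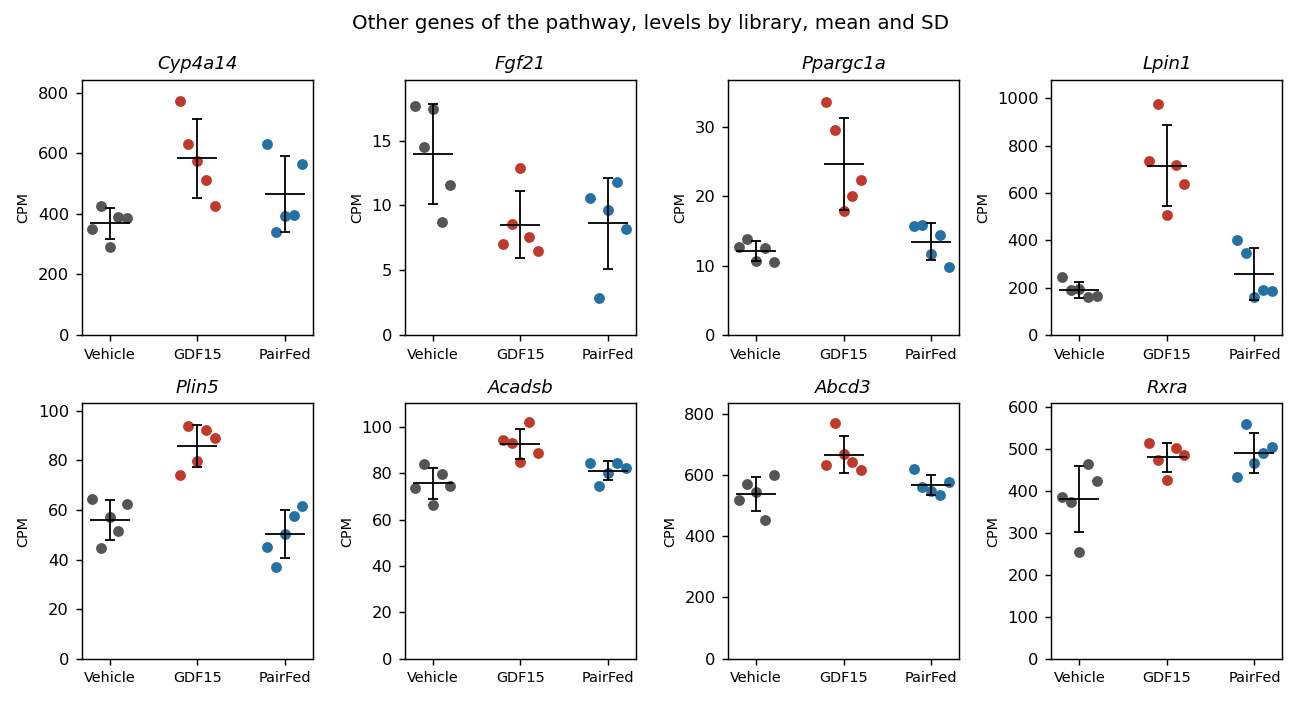
CPM (vertical axis, from 0) in each library of Vehicle, GDF15 and PairFed for 8 other genes of the pathway, with points for libraries 1 to 5 from left to right and bars for the mean and SD. The GDF15 points of Ppargc1a and Plin5 lie above those of both other groups, and those of Acadsb and Abcd3 lie above the Vehicle points.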

How the data were processed

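Liver RNA of 15 mice was profiled with a directional library kit, per the labels' protocols. The deposited values are estimated counts, given per gene symbol as whole numbers and not scaled to depth. The submitters' processing notes list Salmon, which estimates counts from transcripts, as well as DESeq2 and mm10, with no version and no role. Reading the counts as rounded Salmon output rests on that list. Neither the transcript set nor the strand setting is stated there, so overlapping genes and near-identical copies can hold each other's counts. The table had 0 columns of other samples. Columns were assigned to groups by name and are not tied to single animals. The p-values of the main fit rest on the spread between the 5 libraries within each group, shared over all 15 libraries. Each comparison therefore also draws on the group it leaves out.

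Genes were filtered with filterByExpr of edgeR 4.0.16 in R 4.3.3 (minimum count 10, total 15), which left 12274 genes with 99.9% of the counts, and libraries were scaled by TMM. All 15 libraries entered 1 robust quasi-likelihood fit of edgeR, with 3 contrasts and Benjamini-Hochberg adjustment over the 12274 genes. A gene was said to rise or fall at an adjusted p below 0.05. SE were derived from the F statistic, and list scores used a prior count of 2. The test was checked on simulated counts. Alternatives were DESeq2 size factors, upper-quartile factors, no filter, the Wald test of DESeq2 1.42.0, a filter of 10 CPM in 5 libraries, limma-voom (limma 3.58.1), fits of 2 groups, a term for the deeper libraries, and each library left out in turn. A fit of the shallower libraries and an immediate-early covariate were added after seeing the data.

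The members and lists were chosen with earlier results of these data known. Members were given per library if they passed the test, had the 2 largest or smallest fold changes of a contrast, or were fixed by role. Acadl, Eci2, Pex11a, Acot4 and Klf15 fall outside this rule and were chosen after their values were seen. Positions are from GENCODE M21 (GRCm38, the assembly of mm10). Shared 31-base words were counted between GENCODE transcripts, and the longest protein-coding transcript gave the length per kilobase. Protein sequences were not analysed here, and some genes of the pathway lists enter the counts but are not reported singly here.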

Additional observations from a re-analysis of the deposited data

Results flagged for a closer look

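Within each group of 5 libraries, the gap between the most extreme library and its nearest neighbour was divided by the range of the group and compared with Dixon's critical value of 0.71. This was done for the 35 genes in 3 groups, 105 tests in all, of which 6 exceeded the value. Chance flags about 1 in 20 such groups. Crot was low in GDF15 2, at 398 CPM with the next library at 507 CPM, and the fold change of Crot without that library was -0.40 (adjusted p = 0.0922 by edgeR). Acadm was high in GDF15 1 at 472 CPM with the next at 406 CPM. Acaa1a was high in the same library at 262 CPM with the next at 214 CPM. Acadvl was low in PairFed 3 at 376 CPM, beside 396 CPM in the next library. Hadhb was high in Vehicle 5 at 293 CPM, beside 257 CPM. Pdk4 was high in GDF15 2 at 53.3 CPM, beside 35.3 CPM.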

How the results depend on the processing

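No paired analysis was possible because the labels do not say which PairFed mouse was matched to which GDF15 mouse. The number of the 35 genes past the threshold was 1 with GDF15 and became 0 in the fit of 2 groups, among the shallower libraries and with the immediate-early covariate, 2 with the depth term (Slc22a5 and Eci2), and 0 to 1 without single libraries. With pair feeding it was 0 and became 4 with DESeq2, and 0 to 3 without single libraries. It was 3 without Vehicle 5 (Cpt1a, Slc22a5 and Crat) and 3 without PairFed 1 (Cpt1a, Slc22a5 and Pex11a). Between GDF15 and PairFed it was 0 and became 1, Vnn1, with upper-quartile factors, the 10 CPM filter, DESeq2 and the 2-group fit, and 0 to 1 without single libraries. The medians of the 35 kept their sign in every setting: 0.02 to 0.10, 0.10 to 0.18 and -0.11 to -0.04. Over the whole table the calls ran from 9 (immediate-early covariate) to 642 (DESeq2) with GDF15, from 0 (depth term, immediate-early covariate) to 339 with pair feeding, and from 9 (depth term) to 259 between them. The share of higher genes among the calls went from 69.7% to 58.7% with GDF15 and from 51.4% to 32.5% with pair feeding under upper-quartile scaling. In some setting the fold change turned sign for 12 of the 35 genes with GDF15, 6 with pair feeding and 10 between GDF15 and PairFed. Those not given per library were Acads, Hadhb, Hadh, Decr1, Etfdh and Acaa1a with GDF15, Acadvl, Acaa2 and Acaa1a with pair feeding, and Eci1, Etfdh, Acaa1a and Pex11a between GDF15 and PairFed. Upper-quartile factors turned 4, 1 and 1 of the 35. The values that follow are limited to the genes given per library or named from the pathway lists. With upper-quartile factors these were Acadm (-0.024) with GDF15 and Ppara (-0.016) between GDF15 and PairFed. With the 10 CPM filter they were Acadm (-0.014) with GDF15 and Ppara (-0.006) between GDF15 and PairFed, where Ppara was also at -0.001 without a filter and in the 2-group fit. With limma-voom they were Acot2 (0.002) and Pdk4 (0.24) with GDF15 and Fgf21 (0.12) between GDF15 and PairFed. With the depth term, between GDF15 and PairFed, they were Slc22a5 (0.16), Ehhadh (-0.15), Acot1 (0.043) and Rxra (0.21). With the immediate-early covariate they were Ucp2 (0.038), Acot2 (0.087), Acadm (-0.12) and Bdh1 (-0.026) with GDF15; Ppargc1a (-0.049), Acadm (-0.021) and Pdk4 (-0.093) with pair feeding; and Pdp2 (-0.026), Ucp2 (0.05), Ppara (-0.094) and Fgf21 (0.11) between GDF15 and PairFed. Without single libraries the sign turned, with GDF15, for Acaa1b (-0.001 to 0.10), Acadm (-0.039 to 0.05), Acot2 (-0.12 to 0.12), Bdh1 (-0.015 to 0.082) and Pdk4 (-0.29 to 0.29). With pair feeding it turned for Etfb (-0.042 to 0.034) and Pdk4 (-0.14 to 0.54). Between GDF15 and PairFed it turned for Acot1 (-0.18 to 0.016), Ehhadh (-0.012 to 0.13), Fgf21 (-0.23 to 0.14), Pdk4 (-0.47 to 0.10), Ppara (-0.13 to 0.20), Rxra (-0.074 to 0.019) and Ucp2 (-0.09 to 0.048). The causes of these turns were not tested.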

Other observations

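The 20 tested genes of fatty acid uptake and activation, a list outside the 35, had medians of 0.10 with GDF15 and 0.11 with pair feeding on the log2 scale. In edgeR 0 of them passed in any comparison. At an unadjusted p under 0.05 there were 4 higher and 0 lower with GDF15, 0 with pair feeding, and 1 higher and 1 lower between GDF15 and PairFed, while DESeq2 called Acot11 and Slc27a5 with GDF15. Cd36, a fatty acid receptor, was at 274 ± 26.7 CPM in Vehicle, 278 ± 11.6 in GDF15 and 300 ± 41.0 in PairFed (± SD, n = 5 each).

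The next 3 genes were chosen after their values were seen. Cyp4a10, a fatty acid hydroxylase, was at 298, 328, 324, 287 and 362 CPM in Vehicle and 601, 506, 516, 462 and 397 CPM in GDF15. Its groups did not overlap, and the log2 difference of 0.63 ± 0.17 (SE) did not pass (adjusted p = 0.0582 by edgeR, 0.00522 by DESeq2). Acad12, an acyl-CoA dehydrogenase, differed by 0.44 ± 0.11 with pair feeding (adjusted p = 0.0770 by edgeR, 0.0219 by DESeq2). Between GDF15 and PairFed Acad12 did not pass in edgeR (adjusted p = 0.067), while DESeq2 called it. Against Vehicle, neither edgeR nor DESeq2 called Acad12 with GDF15. Pnpla2, the lipase that frees fatty acids from droplets, differed by 0.43 ± 0.12 with GDF15 and 0.51 ± 0.12 with pair feeding (adjusted p = 0.0615 and 0.0715 by edgeR, 0.0192 and 0.00699 by DESeq2).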
